A study of Mus musculus with 12 samples.

Results

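The mitochondrial genome (chrM) encodes 13 subunits of the respiratory chain, 2 ribosomal RNAs and the transfer RNAs that translate them. The members described here were all rows of the FPKM table whose chromosome was chrM, which were 36 genes of 37432. They were 13 mRNA genes, 2 rRNA genes and 21 tRNA genes. A gene was tested where it reached 1 FPKM (fragments mapped to a gene, scaled to its length and to the size of the library) in at least 2 libraries, which 35 of the 36 did. The exception was mt-Td, the aspartate tRNA, which was listed at 0 in 11 of 12 libraries.

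The libraries came from P14 cochleae, the spiral organs of hearing, cut into apical, middle and basal turns. Both genotypes had 2 libraries per turn, so there were 6 groups and 12 libraries. The mutant mice were males homozygous for the 35delG deletion of Gjb2, which encodes connexin 26 (titles ho, genotype label KO). They were grown from mutant embryonic stem cells in tetraploid host embryos, on a nearly pure C57BL/6J background, were born by cesarean section and had ICR foster mothers. The controls (wt) were purchased wild-type males of the same age. Genotype therefore cannot be told apart from the origin and rearing of the mice. The number of mice or stem cell lines behind a library is not given in the sources used here, and the paper calls the 2 repeats of a group biological without naming what was repeated, so p-values measure the spread between these libraries. In tissue pieces, fewer cells of a type and less RNA per cell cannot be told apart.

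Mitochondrial DNA is a small circle that is transcribed from both strands as long precursors. The tRNAs sit between most of the mRNAs and rRNAs, and cutting at the tRNAs releases the mature RNAs. Transcription on the heavy-strand side yields most of the genes, whereas transcription on the light-strand side yields Nd6 and a few tRNAs. The encoded proteins belong to complexes I, III, IV and V of oxidative phosphorylation, and the other subunits of these complexes come from nuclear genes. In the cochlea, this energy supply is drawn on by hair cells, neurons and the ion-pumping stria vascularis. Copies of mitochondrial DNA have also been inserted into nuclear chromosomes, and reads from such a stretch fit both places.

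In the table, 9 members were annotated on the minus strand, which were mt-Nd6 and 8 tRNA genes, and 27 on the plus strand. Several neighbours share bases. The longest overlap was the 43 bases that end mt-Atp8 and start mt-Atp6, both subunits of complex V, shown in capitals in the mt-Atp8 gene (GENCODE M21 transcript, GRCm38, chrM:7766-7969, plus strand).
mt-Atp8: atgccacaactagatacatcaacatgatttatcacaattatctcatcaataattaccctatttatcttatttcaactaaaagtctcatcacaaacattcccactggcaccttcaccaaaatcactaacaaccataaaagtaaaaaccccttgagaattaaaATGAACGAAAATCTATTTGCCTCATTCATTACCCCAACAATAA
The tRNAs were 59 to 75 bases long, shorter than 1 sequenced read end of 150 nt. The sequences of the pair listed highest show how short these features are. They are mt-Te (tRNA for glutamate, chrM:14071-14139, minus strand) and mt-Tl1 (a leucine tRNA, chrM:2676-2750, plus strand).
mt-Te: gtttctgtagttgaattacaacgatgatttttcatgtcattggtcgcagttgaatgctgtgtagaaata
mt-Tl1: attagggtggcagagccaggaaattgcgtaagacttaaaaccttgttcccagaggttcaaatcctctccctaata

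A run of mitochondrial DNA is repeated on chromosome 1, which bears on every level inside it. At chr1:24611535-24616197 (minus strand, GRCm38), a stretch of 4663 bases, 7 annotated pseudogenes matched chrM:6390-11042 in the order of the mitochondrial map. Of these, 5 were identical to the mitochondrial gene over their whole alignment, and the 7 together held 2 mismatches in 4140 aligned bases. One is T3C in Gm28438, counted from the first base of mt-Nd3, and the other is A1066T in Gm29216, counted from the first base of mt-Co1. The windows around them are printed because they hold the only mismatches of these alignments, and the capital marks the differing base.
mt-Nd3: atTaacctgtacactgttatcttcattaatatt
Gm28438: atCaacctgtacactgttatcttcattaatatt
mt-Co1: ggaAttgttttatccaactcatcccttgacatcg
Gm29216: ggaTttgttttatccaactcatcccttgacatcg
The windows lie at chrM:9459-9491 and chr1:24613087-24613119, and at chrM:6390-6423 and chr1:24616155-24616188. The authors kept only uniquely mapped reads. In all, 10 members lie wholly inside the matched span, namely the mRNAs of mt-Co2, mt-Atp8, mt-Atp6, mt-Co3, mt-Nd3 and mt-Nd4l and 4 tRNAs, and mt-Co1 and mt-Nd4 lie inside it by 31.3% and 63.6% of their length. The span runs from the lowest to the highest matched base. Stretches between the pseudogenes were not compared, and these hold most of mt-Atp8 and nearly all of the 4 tRNAs.

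The depth of the libraries is unknown, since FPKM keep no read counts, and the values hold no steps of whole reads. The FPKM of a library summed to 316425 to 408162. Gjb2 itself was at 130 to 435 FPKM in wild type and 57.5 to 476 in homozygotes, and a deletion of 1 base is not seen by such a value. Hair cell markers (6 genes) summed to 15.3 to 489 scaled FPKM in wild type, and to 195 to 356 in the homozygous apical and middle libraries, but to 6.96 and 4.01 in the homozygous basal libraries, where markers of spiral ganglion neurons (10 genes) summed to 3255 and 4211. The 2 wild-type basal libraries differed from each other, with neuron markers at 45.4 and 1111 and erythroid markers at 3173 and 4991. Markers of skeletal muscle and brown fat, tissues rich in mitochondria, summed to at most 4.50 and 3.87.

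The first question was how large a share of the transcriptome came from chrM. The 36 genes held 7.32% to 20.6% of all FPKM (median 9.91%). The share was at 9.96 and 9.86 % in wild type against 7.32 and 9.81 in homozygotes in the apical turn, at 13.8 and 20.6 against 10.7 and 7.64 in the middle turn, and at 8.86 and 17.1 against 8.78 and 12.1 in the basal turn. The middle turn of wild type and 1 wild-type basal library held the highest shares, and homozygous libraries lay below wild type in apex and middle and overlapped with it in the base. On average over the turns, the difference, homozygotes minus wild type, was −3.96 percentage points, 9.39% ± 1.84 (SD, n = 6) against 13.3% ± 4.69 (SD, n = 6). An exact two-sided permutation of genotypes within turns gave p = 0.0926 (adjusted p = 0.192 over 8 tests), so this test did not separate the genotypes. Without the second wild-type basal library, the difference was −2.59 percentage points. Shares by turn were 9.24% ± 1.28 in the apex, 13.2% ± 5.54 in the middle and 11.7% ± 3.89 in the base (SD, n = 4 each), with p = 0.422 for a difference between turns (exact permutation within genotypes, adjusted p = 0.483). With 2 libraries against 2, a single turn cannot reach a p below 0.333.

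**Figure D1:**
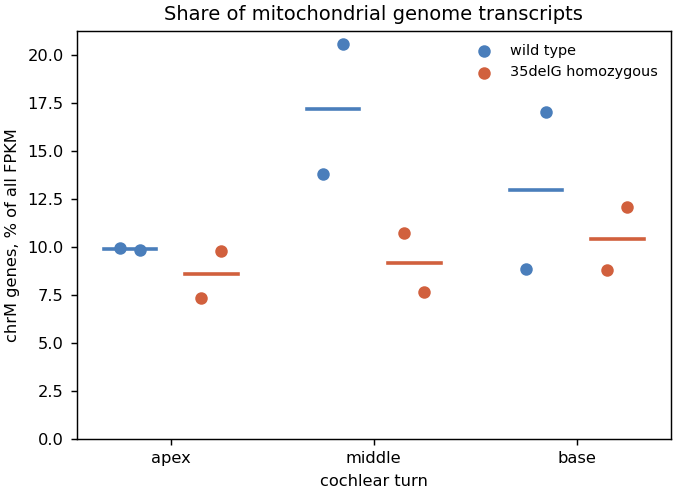
Share of the summed FPKM of each library (y axis, percent) held by the 36 chrM genes, by cochlear turn and genotype; points are libraries and bars are means of 2. The highest values, 20.6% and 17.1%, are wild-type libraries of the middle and basal turns, and the homozygous libraries lie between 7.32% and 12.1%.

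mt-Co1, the core subunit of complex IV, was the gene with the highest FPKM of the whole table in 9 of 12 libraries and stood at rank 2 or 3 in the others. It made up 25.1% to 27.8% of the chrM FPKM. Between 4 and 7 of the 10 highest genes of a library were chrM genes. Over the mRNAs, the mean FPKM fell from mt-Co1 (10835) to mt-Cytb (7754), mt-Nd1 (6480) and mt-Nd2 (3805), and each of these was higher than the next in 12 of 12 libraries. mt-Nd2 was also above mt-Nd6 (3043) in 12 of 12. The neighbours below were not separated in every library, since mt-Nd6 exceeded mt-Nd4 (2805) in 9 and mt-Nd4 exceeded mt-Nd5 (2485) in 10 of 12. The other 6 mRNAs, those wholly inside the span copied to chromosome 1, had means of 49.8 (mt-Nd3), 21.1 (mt-Atp6), 19.6 (mt-Atp8), 17.8 (mt-Co2), 15.6 (mt-Co3) and 9.86 (mt-Nd4l). Their sum was 0.206% to 0.528% of the sum of the 7 others. mt-Co3 and mt-Co2 encode the partners of mt-Co1 in the core of complex IV, yet were listed far below it.

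**Figure D2:**
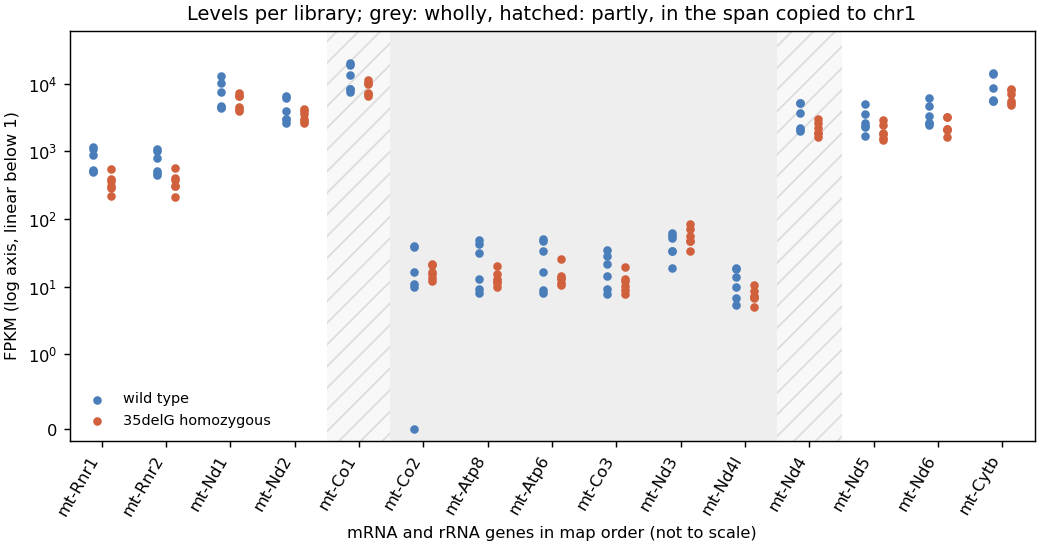
FPKM (y axis, logarithmic, linear below 1) of the 2 rRNA and 13 mRNA genes in each of 12 libraries, in map order along the x axis, with wild type and homozygotes side by side. The 6 genes in grey, wholly inside the span copied to chromosome 1, have medians of 7.92 to 50.2 FPKM, and the 7 other mRNAs of 2215 to 9262.

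Complex I (NADH dehydrogenase) has 7 mitochondrial subunits. mt-Nd1 was at 4484 and 4663 FPKM in wild type against 3957 and 6567 in homozygotes in the apical turn, at 7523 and 13086 against 6686 and 4603 in the middle turn, and at 4418 and 10292 against 4189 and 7293 in the basal turn. mt-Nd2 was at 2989 and 3042 FPKM in wild type against 2616 and 3623 in homozygotes in the apical turn, at 4000.2 and 6614 against 4024 and 3003 in the middle turn, and at 2604 and 6120.0 against 2798 and 4231 in the basal turn. In both genes, the wild-type libraries of the middle turn and 1 of the basal turn were high, and the homozygous middle libraries lay below both wild-type ones. For mt-Nd2 this held only after division by the library factors. mt-Nd4 was at 2189.9 and 2125 FPKM in wild type against 1633 and 2241 in homozygotes in the apical turn, at 3674 and 5192 against 2639.8 and 1883 in the middle turn, and at 1974 and 5236 against 1879.8 and 2994 in the basal turn. mt-Nd5 was at 2287 and 2403 FPKM in wild type against 1484 and 1860.4 in homozygotes in the apical turn, at 2645 and 5089 against 2481 and 1555 in the middle turn, and at 1708 and 3612 against 1805 and 2892 in the basal turn. mt-Nd6 was at 2675 and 2663 FPKM in wild type against 1647 and 2106 in homozygotes in the apical turn, at 3359 and 6245 against 3186 and 2170.1 in the middle turn, and at 2426 and 4692 against 2135 and 3206 in the basal turn. mt-Nd5 and mt-Nd6, which share 14 bases on opposite strands, were lower in both homozygous apical libraries than in both wild-type ones, and mt-Nd4, mt-Nd5 and mt-Nd6 were all lower in those of the middle turn. mt-Nd3 was at 18.5 and 33.7 FPKM in wild type against 46.7 and 47.2 in homozygotes in the apical turn, at 53.2 and 56.9 against 56.1 and 34.0 in the middle turn, and at 33.3 and 62.6 against 70.4 and 85.5 in the basal turn. mt-Nd4l was at 6.66 and 9.92 FPKM in wild type against 6.74 and 7.17 in homozygotes in the apical turn, at 18.3 and 14.1 against 8.68 and 5.02 in the middle turn, and at 5.41 and 18.8 against 6.99 and 10.5 in the basal turn. mt-Nd3 was the 1 mRNA of complex I that exceeded both wild-type values in homozygotes, in apex and base alike.

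Complex III has 1 mitochondrial subunit, cytochrome b. mt-Cytb was at 5569 and 5505 FPKM in wild type against 4809 and 7059 in homozygotes in the apical turn, at 8809 and 13756 against 8198 and 5513 in the middle turn, and at 5863 and 14297 against 5164 and 8503 in the basal turn. The homozygous libraries were below wild type in the middle turn and overlapped with it in the others. Complex IV (cytochrome c oxidase) has 3. mt-Co1 was at 8433 and 8321 FPKM in wild type against 6580.0 and 10090.4 in homozygotes in the apical turn, at 13729.5 and 20148 against 10376 and 7128 in the middle turn, and at 7701 and 18981 against 7199.6 and 11329.6 in the basal turn. mt-Co2 was at 9.78 and 11.0 FPKM in wild type against 16.5 and 15.4 in homozygotes in the apical turn, at 39.4 and 38.0 against 13.5 and 20.7 in the middle turn, and at 16.2 and 0 against 11.9 and 21.4 in the basal turn. mt-Co3 was at 7.65 and 9.06 FPKM in wild type against 8.94 and 12.2 in homozygotes in the apical turn, at 27.9 and 21.4 against 13.1 and 10.3 in the middle turn, and at 14.2 and 34.5 against 7.85 and 19.6 in the basal turn. mt-Co1 and mt-Co3 followed the pattern of mt-Cytb. mt-Co2 was listed at 0 in 1 wild-type basal library, in which the identical copy Gm28661 was at 61.0 FPKM. In 1 homozygous basal library the order was turned, with mt-Co2 at 21.4 and Gm28661 at 0. Complex V (ATP synthase) has 2. mt-Atp8 was at 8.15 and 9.12 FPKM in wild type against 11.1 and 12.8 in homozygotes in the apical turn, at 42.3 and 31.8 against 15.1 and 11.9 in the middle turn, and at 12.8 and 49.5 against 9.97 and 19.9 in the basal turn. mt-Atp6 was at 8.09 and 8.77 FPKM in wild type against 11.3 and 12.8 in homozygotes in the apical turn, at 50.0 and 34.1 against 14.2 and 13.4 in the middle turn, and at 16.2 and 47.7 against 10.5 and 25.8 in the basal turn. Both were below wild type in the homozygous middle turn and above it in the apical turn.

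Of the 7 pseudogenes on chromosome 1, 3 were listed at levels near those of the members they copy. Gm10925, the copy of mt-Atp6, had a median of 15.2 FPKM (9.73 to 60.7) and was above mt-Atp6 in 9 of 12 libraries. Gm28661, the copy of mt-Co2, had a median of 24.1 (0 to 61.0) and was above mt-Co2 in 11 of 12. Gm28437, the copy of mt-Co3, had 9.20 (4.72 to 31.6) and was above it in 1. For these 3 identical pairs, then, the member and its copy stood within a ratio of 0.617 to 1.65 wherever both were above 0. Gm28438, which differs from mt-Nd3 by the 1 base shown above, had 1.98 (1.23 to 7.23), which was 0.0270 to 0.115 of the level of mt-Nd3. Gm10222, the copy of mt-Nd4l and also identical to it over the alignment, had 4.44 (2.22 to 12.6), which was 0.334 to 0.760 of the level of mt-Nd4l. Gm28439 and Gm29216, copies of parts of mt-Nd4 and mt-Co1, had 5.87 (4.50 to 21.4) and 9.06 (4.72 to 33.7), far under these genes. The summed copies were at 40.4 and 51.6 FPKM in wild type against 65.6 and 69.5 in homozygotes in the apical turn, at 197 and 164 against 67.4 and 70.4 in the middle turn, and at 70.9 and 228 against 47.1 and 68.6 in the basal turn, so the high libraries were the same 3 wild-type libraries in which the chrM share was highest. A further 9 annotated copies elsewhere matched with 90.7% to 97.6% identity and reached at most 10.3 FPKM. They included Gm13340, a copy of the whole of mt-Co1 at 1.69 to 10.3 FPKM, Gm13341, a copy of mt-Co2 at 1.64 to 7.43, and Gm13339, a copy of part of mt-Nd2 at 0.0533 to 1.01. Whether the levels inside the span reflect how reads were assigned was not tested.

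Each member was then compared between genotypes with limma on log2(scaled FPKM + 1), and calls needed more than a 2-fold change together with an adjusted p below 0.01. No member was called in the apical, middle or basal turn or in the mean of the turns. Of all 16215 genes tested, 0.179%, 0.179%, 4.29% and 0.376% were called in these 4 comparisons. At an unadjusted p under 0.05, the members numbered 4, 7, 2 and 3 of 35, beside 16.4%, 25.4%, 32.4% and 18.6% of all genes.

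In the middle turn, all 35 tested members were lower in homozygotes, with a median log2 fold change of −1.05 beside 0.04 over all genes. The median was −1.12 for the 13 mRNAs, −1.66 for the 2 rRNAs and −0.96 for the 20 tRNAs. After scaling, both homozygous libraries were below both wild-type libraries in 30 of 36 members, and in none were both above, whereas 28.2% of all genes tested were below and 31.3% above. Of these 30, mt-Nd2, mt-Nd3 and the tRNAs mt-Ti, mt-Tm, mt-Tv and mt-Tt overlapped between genotypes in the FPKM before scaling. The separated members were the 13 mRNAs, the 2 rRNAs and 15 tRNAs. mt-Rnr1, the 12S rRNA, had the lowest adjusted p of the members, with a log2 fold change of −1.72 ± 0.48 (SE; adjusted p = 0.0745 by limma), and mt-Atp6 followed with −1.68 ± 0.51 (SE; adjusted p = 0.0897 by limma). mt-Co1 had −1.12 ± 0.97 (SE; adjusted p = 0.507 by limma). The members are not independent of each other. Over the 12 libraries, the log2 levels of the 7 mRNAs outside the span correlated with each other at r = 0.911 to 0.993, a description over libraries that share genotype, turn and scaling. In the same 4 libraries, the 10 neuron markers were also lower in homozygotes, by a median of −3.57, and summed to 2059 and 2423 against 479.8 and 63.9. Schwann cell and myelin markers (7 of 7 lower, median −2.75) summed to 19526 and 5542 against 799.8 and 800.1, and neutrophil markers (5 of 5 higher, median 3.41) to 39.1 and 221 against 5824 and 314. Strial marginal cell markers (5 of 5 higher, median 2.89) summed to 212 and 147 against 506 and 694, and hair cell markers (6 of 6 higher, median 0.83) to 15.3 and 62.9 against 195 and 356. No marker of these lists was at 0 in every library. The part of such cells in the chrM levels was not tested.

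In the apical turn, the members did not move together. The median log2 fold change of the mRNAs was 0.04 (8 higher, 5 lower), which is below 0 under other scalings, at −0.16 after quantile normalization and −0.09 with an equal sum of FPKM, and it was −0.26 without the second homozygous apical library and 0.35 without the first. The 2 rRNAs were at −0.91 and −0.85, and the tRNAs had a median of −0.05. Of the 36 members, 10 lay above and 6 below in both homozygous libraries after scaling, beside 26.9% and 32.1% of all genes tested. The 10 were mt-Co2, mt-Atp8, mt-Atp6 and mt-Nd3, all inside the copied span, and the tRNAs mt-Tf, mt-Tv, mt-Tl1, mt-Tm, mt-Tg and mt-Ts1. The 6 were mt-Rnr1, mt-Rnr2, mt-Nd5, mt-Nd6, mt-Te and mt-Th. In these libraries, neuron markers (9 of 10 lower, median −1.60) summed to 798 and 1144 in wild type against 206 and 464, and strial marginal cell markers (5 of 5 higher, median 3.46) to 174 and 169.8 against 428 and 983.

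In the basal turn, the mRNAs had a median log2 fold change of −0.38 (2 higher, 11 lower), the rRNAs −0.79 and the tRNAs 0.38 (12 higher, 8 lower). No member was below in both homozygous libraries and 6 were above, beside 27.8% and 26.2% of all genes tested. These 6 were mt-Nd3 and the tRNAs mt-Tf, mt-Tv, mt-Tl1, mt-Tm and mt-Tg. The size rested on which wild-type library was used. Without the first wild-type basal library, the median of the mRNAs was −1.09, and without the second it was 0.25. In this turn, neuron markers (10 of 10 higher, median 4.28) summed to 45.4 and 1111 in wild type against 3255 and 4211, and Schwann cell and myelin markers (6 of 7 higher, median 2.32) to 1455 and 5524 against 9139 and 14466. Fibrocyte markers (5 of 5 lower, median −1.69) summed to 6979 and 6719 against 2540 and 459.5, and hair cell markers were 6 of 6 lower (median −2.60). Averaged over the turns, the mRNAs had a median of −0.57 (2 higher, 11 lower) beside 0.0006 over all genes, and −0.32 without the second wild-type basal library.

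**Figure D3:**
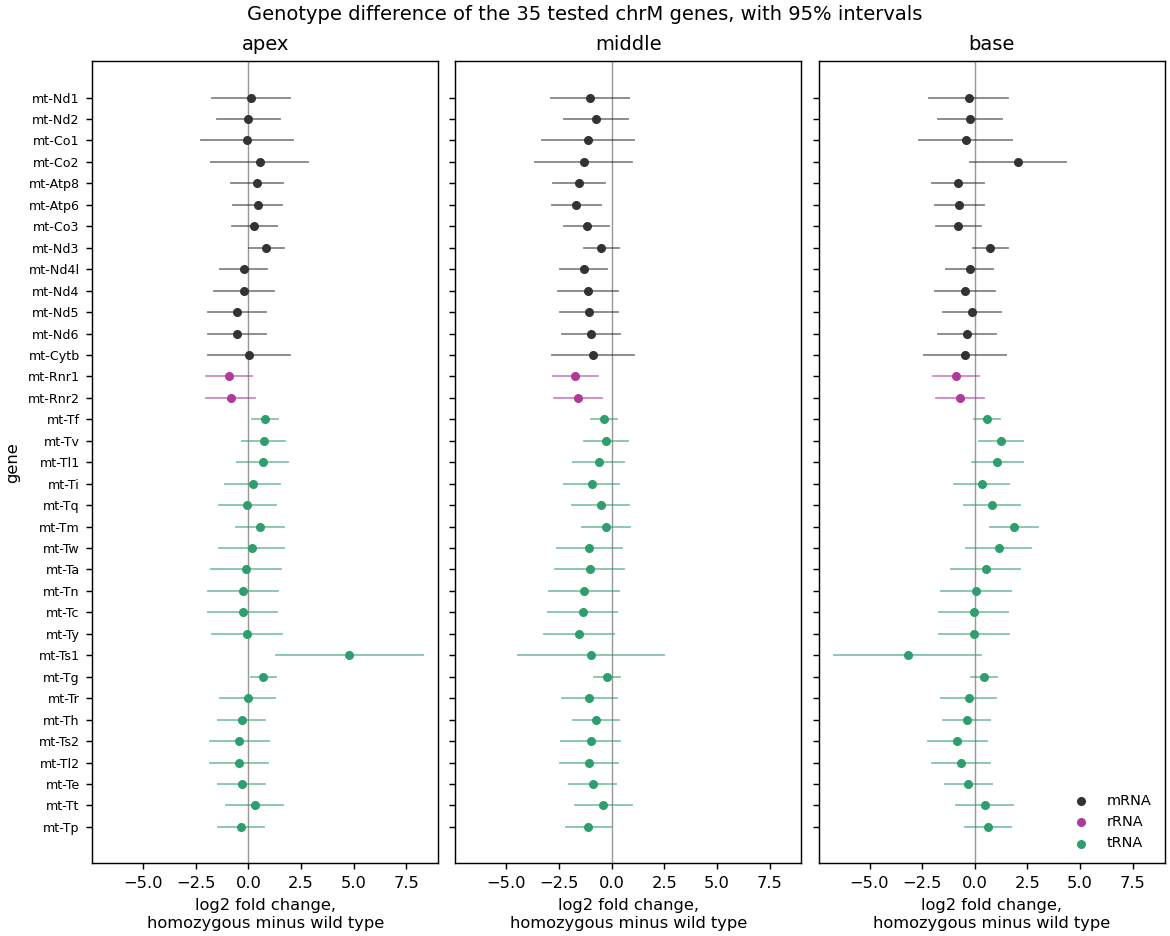
Log2 fold change of homozygotes over wild type (x axis, log2(scaled FPKM + 1)) for the 35 tested chrM genes (y axis), with 95% intervals from limma, in the apical, middle and basal turns. All 35 points lie below 0 in the middle turn, 18 in the apical turn and 21 in the basal turn, and the widest interval belongs to mt-Ts1.

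Interaction contrasts asked whether the genotype difference itself changed between turns. It was lower in the middle than in the apical turn for 35 of 35 members (median −0.98), with 0 called beside 0% of all genes and 6 of 35 at an unadjusted p under 0.05 beside 8.05% of all genes. Between the basal and apical turns it was higher for 18 and lower for 17, with 0 called beside 0.796% and 1 at an unadjusted p under 0.05 beside 28.4%. Between the basal and middle turns it was higher for 34 and lower for 1 (median 0.92), with 0 called beside 8.91% and 8 at an unadjusted p under 0.05 beside 37.7%. These contrasts share libraries with the genotype contrasts. The lowest adjusted p of a member was 0.0453, for mt-Ts1 between basal and apical turns, and mt-Ts1 was listed at 0 in 5 libraries.

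The 2 ribosomal RNAs are the framework of the mitochondrial ribosome and lie next to each other near the start of the heavy-strand transcript, mt-Rnr1 at chrM:70-1024 and mt-Rnr2, the 16S rRNA, at chrM:1094-2675. mt-Rnr1 was at 533 and 514 FPKM in wild type against 219.9 and 364 in homozygotes in the apical turn, at 1161 and 888 against 396 and 304 in the middle turn, and at 498 and 1068 against 284 and 551 in the basal turn. mt-Rnr2 was at 482 and 519.9 FPKM in wild type against 209.7 and 379.7 in homozygotes in the apical turn, at 1101 and 806 against 399 and 303 in the middle turn, and at 446 and 1030.2 against 309 and 576 in the basal turn. Both were lower in both homozygous libraries of the apical and middle turns and overlapped in the basal turn. The pair moved together, with mt-Rnr2 at 0.896 to 1.09 of mt-Rnr1 (r = 0.994 over 12 libraries). Averaged over the turns, the log2 fold change was −1.17 ± 0.28 (SE; adjusted p = 0.0659 by limma) for mt-Rnr1 and −1.05 ± 0.29 (SE; adjusted p = 0.0990 by limma) for mt-Rnr2, the lowest adjusted p-values of the members in this comparison, and neither was called. The direction was down in each turn under every alternative tried for these genes, but the size rested on single libraries. Over the libraries left out, the basal value ranged from −1.47 to −0.32 for mt-Rnr1 and from −1.33 to −0.06 for mt-Rnr2, both nearest to 0 without the second wild-type basal library. The apical value ranged from −1.30 to −0.52 and from −1.31 to −0.40, nearest to 0 without the first homozygous apical library.

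Set against the mRNAs of the same library, which removes the scaling, the summed rRNAs were at 3.54 and 3.59 % in wild type against 1.88 and 2.21 in homozygotes in the apical turn, at 5.14 and 2.41 against 2.11 and 2.34 in the middle turn, and at 3.52 and 3.31 against 2.35 and 2.77 in the basal turn of the summed mRNA FPKM. In every turn both homozygous libraries were below both wild-type libraries. The mean difference of the log2 ratio, homozygotes minus wild type, was −0.63. The exact two-sided permutation of genotypes within turns gave p = 0.00926, the smallest it can give, and an adjusted p of 0.0741 over the 8 tests. This permutation treats the turns as independent. Whether pieces of different turns came from the same mice is not given, and if they did, this p overstates the evidence. The gap rested on ratios as small as 2.41% against 2.34% in the middle turn, where the other wild-type library was at 5.14%. With the median of the gene-wise log2 values in place of sums, the difference was −0.58 (exact permutation, p = 0.0278, adjusted p = 0.111). The median mRNA of a library is then 1 gene, the lowest of the 7 not wholly inside the copied span, which was mt-Nd4 or mt-Nd5. Turns gave p = 0.831 by the exact permutation test. Whether the libraries were made after poly(A) selection or removal of rRNA is not given in the sources used here, and its part in the rRNA levels was not tested.

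**Figure D4:**
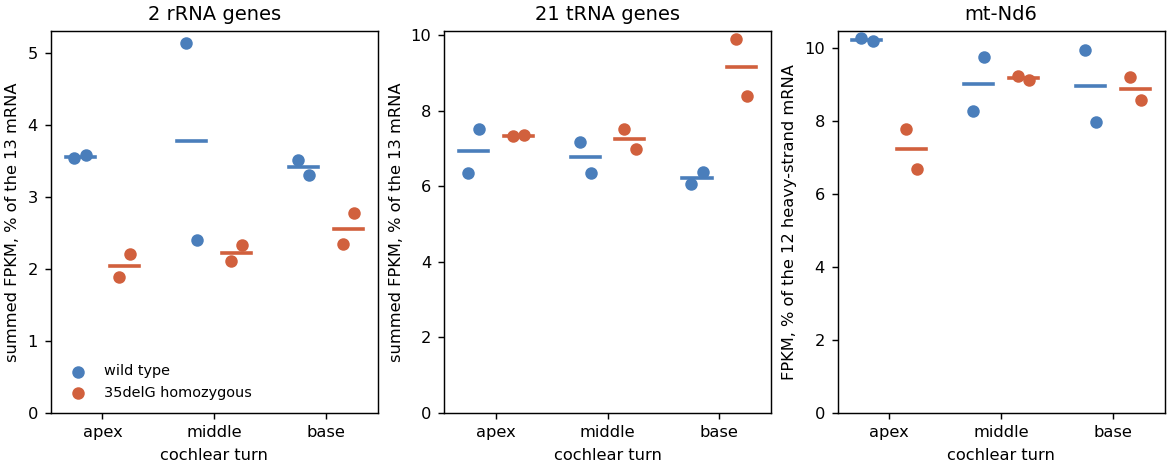
Summed FPKM of the 2 rRNA genes and of the 21 tRNA genes as a percentage of the 13 mRNAs, and mt-Nd6 as a percentage of the 12 heavy-strand mRNAs (y axes), by turn and genotype; points are libraries and bars are means of 2. The rRNA percentages of homozygotes (1.88% to 2.77%) lie below those of wild type in each turn, and the tRNA percentages lie above them in the basal turn.

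Transfer RNAs made up 5.53% to 8.83% of the chrM FPKM, although they are the most numerous members. Of the 21, 7 had a mean of at least 100 FPKM and 3 a mean under 10. The 4 highest were mt-Te, mt-Tl1, mt-Tn (asparagine) and mt-Tc (cysteine), at means of 1026, 450.3, 164 and 151 FPKM. mt-Te was at 803 and 919 FPKM in wild type against 603 and 812 in homozygotes in the apical turn, at 1118 and 1801 against 1053 and 705 in the middle turn, and at 791 and 1761 against 828 and 1112 in the basal turn. mt-Tl1 was at 221 and 314 FPKM in wild type against 338 and 543 in homozygotes in the apical turn, at 426 and 803 against 488 and 375 in the middle turn, and at 179 and 468 against 514 and 734 in the basal turn. mt-Te, whose sequence is shown above and which directly adjoins mt-Nd6, was highest in the same wild-type libraries as the mRNAs. mt-Tl1, which sits between mt-Rnr2 and mt-Nd1, was instead above wild type in both homozygous libraries of the apical and basal turns. mt-Tn was at 119 and 124 FPKM in wild type against 61.1 and 177 in homozygotes in the apical turn, at 256 and 280.0 against 196 and 73.8 in the middle turn, and at 82.2 and 265 against 103 and 235 in the basal turn. mt-Tc was at 104 and 112 FPKM in wild type against 53.8 and 154 in homozygotes in the apical turn, at 244 and 247 against 169 and 65.9 in the middle turn, and at 80.5 and 272 against 98.1 and 212 in the basal turn. Both lie on the minus strand in a cluster of tRNA genes and had high and low libraries in common.

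As a group, the summed tRNAs were at 6.35 and 7.52 % in wild type against 7.33 and 7.36 in homozygotes in the apical turn, at 7.19 and 6.36 against 7.53 and 6.99 in the middle turn, and at 6.06 and 6.39 against 9.92 and 8.39 in the basal turn of the mRNA sum. The homozygous basal libraries were the highest, and the mean log2 ratio was 0.25 higher in homozygotes (exact permutation within turns, p = 0.0556, adjusted p = 0.192). Single tRNAs were named beyond the 4 highest after their values were seen. mt-Tm was at 73.0 and 74.6 FPKM in wild type against 95.4 and 129 in homozygotes in the apical turn, at 105 and 124 against 114 and 99.8 in the middle turn, and at 26.6 and 101 against 176 and 209 in the basal turn. The methionine tRNA mt-Tm thus had its lowest value in the first wild-type basal library. Its log2 fold change in the basal turn was 1.85 ± 0.51 (SE; adjusted p = 0.0361 by limma), the lowest adjusted p of a member in any genotype contrast. The size rested on the wild-type basal libraries, at 2.82 without the second and 0.88 without the first. mt-Ts1 was at 0 and 0 FPKM in wild type against 32.3 and 23.4 in homozygotes in the apical turn, at 49.5 and 55.6 against 26.7 and 32.7 in the middle turn, and at 0 and 79.7 against 0 and 0 in the basal turn. The serine tRNA mt-Ts1 lies inside the copied span and shares 3 bases with mt-Co1 on the opposite strand. It was listed at 0 in both wild-type apical libraries, 1 wild-type and both homozygous basal libraries, and at 23.4 to 79.7 FPKM in the other 7, so no fold is given against these groups. The phenylalanine tRNA mt-Tf was at 1.96 and 1.97 FPKM in the wild-type apex against 4.29 and 4.17 in homozygotes, with a log2 fold change of 0.79 ± 0.27 (SE; adjusted p = 0.206 by limma). Apart from mt-Td, the tRNAs not given by library ranged from 1.33 FPKM (mt-Tv) to 302 FPKM (mt-Tp).

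mt-Nd6 is the only mRNA on the minus strand, and its level beside the 12 others compares the products of the opposite strands. It was at 10.3 and 10.2 % in wild type against 7.78 and 6.68 in homozygotes in the apical turn, at 8.27 and 9.75 against 9.23 and 9.13 in the middle turn, and at 9.95 and 7.99 against 9.22 and 8.57 in the basal turn of their summed FPKM. The homozygous apical libraries were the lowest of all, and the other turns overlapped. The mean log2 ratio differed by −0.16 (homozygotes minus wild type; exact permutation within turns, p = 0.194, adjusted p = 0.259), and turns gave p = 0.102 (adjusted p = 0.192). Measured against the median of the gene-wise log2 values of the 12, the difference was −0.55 (exact permutation, p = 0.0185, adjusted p = 0.111). As 6 of the 12 lie wholly inside the copied span, this median falls midway between 2 genes. These are the lowest mRNA outside the span, mt-Nd4 or mt-Nd5, and the highest inside it, mt-Nd3. The measure thus depends on mt-Nd3 and not on all 12 alike. The libraries are not stated to keep strand, so reads of mt-Nd6 and of antisense transcripts cannot be told apart.

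Turns were also compared within each genotype. In wild type, all 35 tested members were higher in the middle than in the apical turn, with a median log2 fold change of 1.12, and all 35 were lower in the basal than in the middle turn, with a median of −0.60. Between the wild-type basal and apical turns, 30 were higher and 5 lower. No member was called in these 3 comparisons, in which 0.0863%, 0% and 0.0863% of all genes were called in the same order, and 9, 3 and 6 of 35 members had an unadjusted p under 0.05 by limma, beside 19.9%, 15.2% and 20.3% of all genes. In homozygotes, 27 were higher and 8 lower in the middle than in the apical turn (median 0.17), with 0 called beside 0% of all genes, and 0 at an unadjusted p under 0.05 beside 2.65%. The basal turn of homozygotes was higher than the apical turn for 34 of 35 (median 0.55) and than the middle turn for 34 of 35 (median 0.32). Again no member was called, beside 4.06% and 4.66% of all genes, and 2 of 35 members had an unadjusted p under 0.05 in each, beside 32.9% and 34.6%. Several of these directions rested on 1 library. In wild type, the mRNA median of base minus middle was −0.55, but 0.15 without the first basal library. That of base minus apex was 0.61, but −0.03 without the second. In homozygotes, the basal medians were 0.30 against the apex and 0.14 against the middle. Without the second homozygous basal library they were −0.11 and −0.24.

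The nuclear partners of the members were described with lists compiled by function. For the 80 tested nuclear subunits of complexes I to V, medians of the log2 fold change were 0.30 in the apical turn (76 higher, 4 lower), −0.60 in the middle turn (7 higher, 73 lower) and 0.36 in the basal turn (66 higher, 14 lower). No subunit was called in any of the 3, beside 0.179%, 0.179% and 4.29% of all genes. At an unadjusted p under 0.05 by limma there were 2, 15 and 8 of 80, beside 16.4%, 25.4% and 32.4% of all genes. The median over the mean of the turns was 0.01. In the middle turn, nuclear and mitochondrial subunits were thus both lower in homozygotes. In the basal turn the nuclear subunits had a median above 0 and the mitochondrial mRNAs one below 0. Without the second wild-type basal library, the median of the mitochondrial mRNAs was 0.25. The 2 nuclear subunits of highest mean level were Atp5b, the catalytic beta subunit of ATP synthase, with a middle value of −0.53 and a basal value of 0.84, and Cox4i1, of complex IV, at −0.65 and 0.37. Complex II has no mitochondrial subunit, and its 4 nuclear ones had medians of 0.42, −0.36 and 0.25 in the 3 turns.

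The balance of both genomes can be read within a library, free of scaling. Here the nuclear sum covers all 84 listed subunits with FPKM values, of which 80 were tested. The 7 mRNAs outside the span, divided by these nuclear subunits, had ratios of summed FPKM at 4.71 and 4.32 in wild type against 3.54 and 3.15 in homozygotes in the apical turn, at 4.24 and 5.86 against 4.40 and 3.26 in the middle turn, and at 4.26 and 5.29 against 2.98 and 2.79 in the basal turn. In apex and base, both homozygous libraries were below both of wild type, and the middle turn overlapped. Over all turns, wild type ranged from 4.24 to 5.86 (median 4.52) and homozygotes from 2.79 to 4.40 (median 3.21). This ratio was formed after the values were seen and was not tested.

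**Figure D5:**
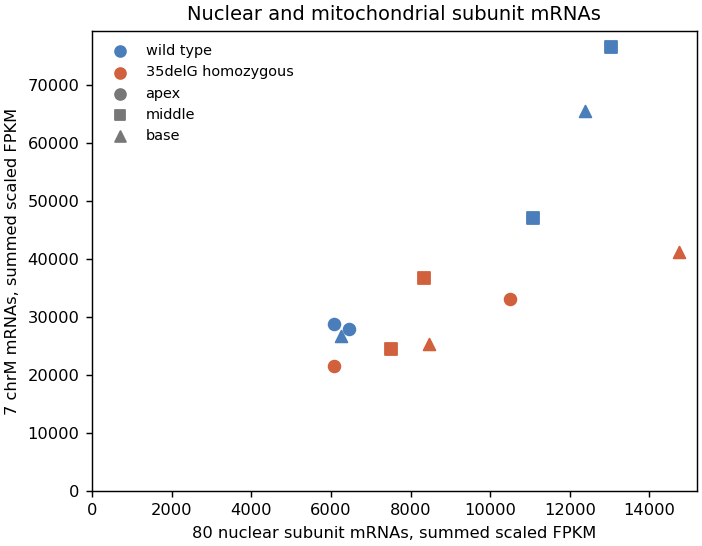
Summed scaled FPKM of the 7 chrM mRNAs outside the copied span (y axis) against that of 84 nuclear respiratory chain subunits (x axis), 1 point per library, with genotype by colour and turn by shape. The axis label gives 80, the number of these subunits that were tested. The 3 highest points are wild-type libraries at 46952 to 76475 on the y axis, while the homozygous library highest on the x axis, at 14752, reaches 41201.

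The nuclear genes that make and process mitochondrial RNA were mostly not called. Of 17 tested genes for transcription, replication and packaging of mitochondrial DNA, 0 were called in any turn. Of all genes, 0.179%, 0.179% and 4.29% were called in the apical, middle and basal turns. The medians of the 17 genes were 0.04, 0.01 and 0.15 in the same order. Ssbp1, the single-strand binding protein, and Lonp1, a protease of the matrix, were the highest of these and lay between −0.05 and 0.28. Of 30 genes for processing, stability and modification of the RNA, 1 was called. Lrpprc, which stabilizes mitochondrial mRNAs, was at 10.7 and 11.7 scaled FPKM in wild type against 8.84 and 9.45 in homozygotes in the apical turn, at 12.3 and 11.7 against 9.40 and 7.45 in the middle turn, and at 6.66 and 9.11 against 17.8 and 15.9 in the basal turn. It rose in the homozygous basal turn, with a log2 fold change of 1.02 ± 0.17 (SE; adjusted p = 0.00828 by limma), and had −0.26 and −0.47 in the apical and middle turns. Of 78 genes of the mitochondrial ribosome, whose RNA core the 2 rRNAs form, 1 was called. Mrps6, a protein of the small subunit, was at 61.0 and 66.7 scaled FPKM in wild type against 79.3 and 93.6 in homozygotes in the apical turn, at 77.5 and 77.1 against 71.6 and 96.0 in the middle turn, and at 161 and 106 against 48.9 and 49.6 in the basal turn. It fell in the homozygous basal turn (−1.39 ± 0.22, SE; adjusted p = 0.00746 by limma) and had 0.43 and 0.10 in the other turns. The medians of the ribosome list were 0.15, −0.15 and 0.13. Of 12 genes for mitochondrial biogenesis and mass, 0 were called, and Vdac1, the porin of the outer membrane, had the values 0.11, −0.73 and 1.23, the last with an adjusted p of 0.0327 by limma. Of all genes, 4.29% were called in the basal turn. When single libraries were left out, Lrpprc and Mrps6 were each called in 1 of 12 cases, without the second wild-type basal library, and their basal values ranged from 0.81 to 1.22 and from −1.69 to −1.10 over all alternatives.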

How the data were processed

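Per the labels and methods, reads (150 nt paired ends) were trimmed with fastp 0.20.0, aligned to mm10 (GRCm38) with STAR 2.7.3a, and only uniquely mapped reads were kept. The authors calculated FPKM with StringTie 2.0 and deposited them as 1 table of 37432 genes, which was used here as given. Counts, tested by the authors with DESeq2, were not used here. All 12 sample columns were used.

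Each library was scaled by a median-of-ratios factor (0.917 to 1.06, over the 11552 genes at 1 FPKM or more in every library). The 16215 genes at 1 FPKM or more in at least 2 libraries entered a limma fit (version 3.58.1, R 4.3.3) of log2(scaled FPKM + 1) on 6 group means, eBayes with trend, two-sided and Benjamini-Hochberg adjusted; low genes have understated fold changes. In each library, 4 values (the chrM share and 3 ratios) were formed and compared by exact permutation, adjusted over 8 tests. The permutations and the fit treat all libraries as independent, also those of different turns. The fit was tested on simulated data. Nuclear copies were found by matching GENCODE M21 transcripts to the chrM transcripts with blastn 2.17.0 (at least 90% identity over at least 80% of the transcript). All 36 members had the coordinates of that annotation.

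Members and gene lists were chosen with earlier results of these data known. Named were all mRNAs and rRNAs, the 4 highest or called tRNAs, copies at 1 FPKM or more, and of each list the called genes and the 2 highest, though not all of these are reported. Other tRNAs were named after their values were seen. Alternatives were other pseudocounts, filters, scalings, thresholds, variance settings and subsets of libraries. mt-Tk was not analysed here.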

Additional observations from a re-analysis of the deposited data

Results flagged for a closer look

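The genotype difference of Lrpprc itself differed between turns, which was tested with an interaction contrast. Homozygotes minus wild type was 1.49 ± 0.25 (SE) higher on the log2 scale in the basal than in the middle turn (adjusted p = 0.00457 by limma, 2 libraries per group). It ranged from 1.28 to 1.70 over all alternatives, and was called in 9 of 10 other settings. Leaving out single libraries kept the call in 3 of 12 cases, with an adjusted p of at most 0.0186 by limma.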

How the results depend on the processing

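The count of called members stayed at 0 under most alternatives. At an adjusted p under 0.05 it was 1 in the basal turn (mt-Tm), beside 1954 of all 16215 genes. For the genotype difference between basal and apical turns it was 1 (mt-Ts1), beside 1810 of 16215. With only the apical libraries it was 1 in the apical turn (mt-Ts1), beside 166 of 14780 genes. With library weights it was 2 between the wild-type middle and apical turns (mt-Atp6 and mt-Ts1), beside 111 of 16215. Leaving out each library in turn gave 0 to 1 members in the apical turn, 0 to 3 in the basal turn, 0 to 2 in the mean of the turns, 0 to 1, 0 to 2 and 0 to 3 for the genotype difference between middle and apical, basal and apical, and basal and middle turns, 0 to 1, 0 to 2 and 0 to 1 between the wild-type turns in the same order, and 0 to 1 between the homozygous basal turn and each other turn. The counts of 3 came without the second wild-type basal library (mt-Tm, mt-Tq and mt-Tv in the basal turn). For these, the share called was higher among all genes tested than among the members. For the smaller counts above 0 it went either way. Each such fit left 1 library in a group, so its counts cannot decide whether a member differed. The median of the mRNAs in the basal turn ranged from −1.09 to 0.25 over the libraries left out, that of mt-Co1 from −1.11 to 0.25 in the basal and −0.41 to 0.27 in the apical turn, and that of mt-Co2 in the basal turn from −0.0020 to 4.10. The lowest or highest of these came without a wild-type basal library, except for the apical turn. The cause was not tested.

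Same-numbered libraries correlated at −0.43 to 0.45 in their deviations from the group means. With 2 libraries per group, such values cannot decide whether the numbers pair the samples. Whether libraries of different turns came from the same mice is not given in the sources used here. With the replicate number as a block, 0 members were called in all 13 comparisons and the medians of the mRNAs stayed at 0.04, −1.12, −0.38 and −0.57 in the apical, middle and basal turns and their mean, while the calls among all genes in the basal turn went from 696 to 177. It was 22 with library weights, 0 with the basal libraries alone, and 40 to 1840 when single libraries were left out. Lrpprc and Mrps6 were called under 6 and 5 of 11 other settings, and had adjusted p-values up to 0.138 and 0.137 by limma, with the basal libraries alone. Scaling to an equal sum of FPKM moved the median of all genes in the apical turn from −0.03 to −0.13. Depth is unknown, so counting error is known for no value, and tRNAs shorter than a read, neighbours that share bases and members inside the copied span are uncertain.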

Other observations

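Neighbouring tRNA genes had high and low libraries in common, and these differed between clusters. In the cluster on the minus strand between mt-Nd2 and mt-Co1, mt-Ta was at 82.2 and 101 FPKM in wild type against 51.2 and 139.8 in homozygotes in the apical turn, at 189 and 198 against 166 and 66.0 in the middle turn, and at 46.8 and 184 against 96.8 and 185 in the basal turn. mt-Ty was at 53.4 and 53.8 FPKM in wild type against 30.7 and 90.5 in homozygotes in the apical turn, at 124 and 119.8 against 71.6 and 29.6 in the middle turn, and at 43.1 and 166 against 57.7 and 118 in the basal turn. Both were at their lowest in the homozygous apical library 1, the homozygous middle library 2 and the wild-type basal library 1, in which mt-Tn and mt-Tc of the same cluster were also low.

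In the cluster between mt-Nd4 and mt-Nd5, other libraries were low. mt-Th was at 35.9 and 39.2 FPKM in wild type against 37.7 and 24.3 in homozygotes in the apical turn, at 48.9 and 60.8 against 54.4 and 24.3 in the middle turn, and at 35.9 and 74.7 against 56.6 and 27.6 in the basal turn. mt-Ts2 was at 36.0 and 50.8 FPKM in wild type against 51.4 and 20.0 in homozygotes in the apical turn, at 70.9 and 97.3 against 60.6 and 35.5 in the middle turn, and at 60.7 and 117 against 85.1 and 26.1 in the basal turn. mt-Tl2 was at 41.6 and 61.3 FPKM in wild type against 62.7 and 21.7 in homozygotes in the apical turn, at 90.4 and 122 against 63.9 and 49.6 in the middle turn, and at 70.7 and 131 against 110.4 and 33.9 in the basal turn. The second homozygous libraries of the apical and basal turns were among the 4 lowest for all 3, while the flanking mt-Nd4 was at 2241 and 2994 FPKM there, above the first library of the same groups (1633 and 1879.8). These groupings were noticed in the values and were not tested.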
